A study of Lotus japonicus with 16 samples.

Results

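A set of 208 genes of Lotus japonicus, a model legume, changed with phosphate supply in roots at a favorable temperature and with temperature in shoots at sufficient phosphate, and the corresponding comparisons at high temperature and at low phosphate did not list it. The members were chosen by listing alone, that is by the adjusted p and fold behind it: presence in the authors' 2 deposited tables for the first pair, absence from the 2 for the second pair, in either direction. The 208 genes were 5.26% of the 3958 genes listed in any of the 4 tables. All plants were of the MG-20 genotype and were grown in hydroponics for 3 weeks of treatment. Sufficient P was 64 µM phosphate and low P was 6.4 µM. The favorable temperature was 23 °C by day and 22 °C by night, and the high temperature was 30 °C and 29 °C. The 2 comparisons that hold the genes set low P at favorable temperature against sufficient P at favorable temperature in whole roots, and sufficient P at high temperature against sufficient P at favorable temperature in whole shoots. The 2 comparisons that do not list them were low P against sufficient P in roots at high temperature, and high against favorable temperature in shoots at low P. Each group had 2 libraries, and each library is taken as 1 pool of 3 plants, as the growth protocol describes replicates. Roots and shoots share no library, but plants at sufficient P and favorable temperature are the baseline of both comparisons, and not given in the sources used here is whether the same plants gave both tissues.

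Plants that run short of phosphate change the expression of many genes through the PHR transcription factors, which are held back by SPX proteins while phosphate is plentiful. Typical targets in Arabidopsis and rice are phosphate transporters, secreted acid phosphatases and enzymes that replace membrane phospholipids with galactolipids and sulfolipids. Moderate warmth acts on shoots partly through phytochrome B and the PIF transcription factors, as studied mainly in Arabidopsis, and stronger heat brings in heat shock factors and chaperones. The gene table used here, RefSeq's for assembly LjGifu_v1.2, gives the members only locus numbers, so no member can be assigned to these pathways and no role is stated for any of them. For the same reason the tissue labels were not checked against marker genes. Whole organs were sequenced, so fewer cells of a type and less RNA per cell cannot be told apart.

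No table holds values per library and read depth is unknown, so all errors below are the authors' standard errors and no further test was made per gene. A level is the number of normalised counts in a condition, derived here from the deposited base mean (the mean over the libraries of a comparison) and fold. The tables do not name the reference group. Genes under the heading "Up-regulated" were read as higher in the group that the table's name gives last, that is low P for roots and high temperature for shoots, and "rose" and "fell" are used in that sense. If 1 of the tissues were read the other way round, genes that went the same way would become genes that went opposite ways. Every row of the 4 tables had an adjusted p below 0.05 and a log2 fold change of 1 or more in size, the 2 limits of listing.

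Of the 208 genes, 128 fell and 80 rose in low-P roots, and 113 fell and 95 rose in warm shoots. The root comparison called 10.1% of the genes tested, 4.67% higher and 5.46% lower, and the shoot comparison called 8.28%, 4.51% higher and 3.77% lower. Both comparisons chose the members, so the counts describe them and nothing is read from the difference. The largest class was lower in both tissues, with 100 genes (48.1%). Another 67 genes (32.2%) rose in both. Root and shoot went apart in 41 genes, 28 that fell in roots and rose in shoots (13.5%) and 13 that rose in roots but fell in shoots (6.25%). The members made up 10.2% of the 2045 genes listed in roots and 12.5% of the 1667 listed in shoots.

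**Figure D1:**
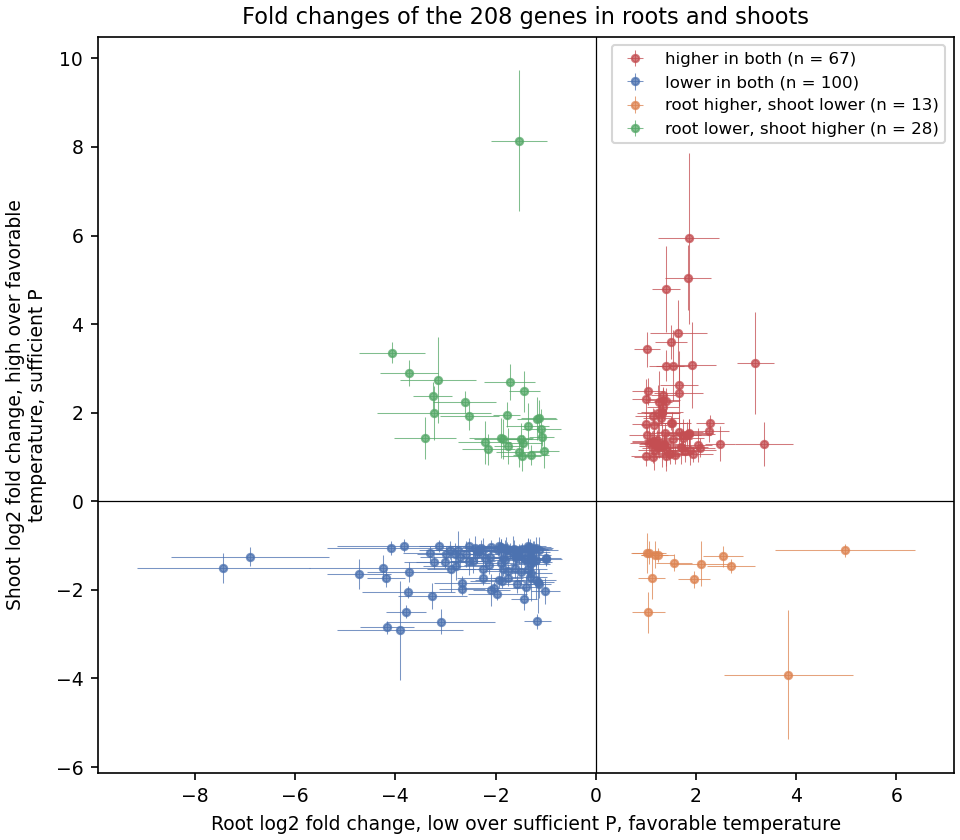
Log2 fold change in roots (horizontal axis, low over sufficient P at favorable temperature) against log2 fold change in shoots (vertical axis, high over favorable temperature at sufficient P) for the 208 genes, coloured by direction class, with bars of 1 standard error from the authors' deposited tables. The 100 genes lower in both tissues fill the lower left and the 67 higher in both the upper right, and no point lies within 1 log2 unit of either zero line because listing required that distance.

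Genes that fell in both tissues mostly had the larger listed fold in roots. Their median log2 fold change in the authors' deposited tables was -1.89 in roots (median SE 0.41) and -1.31 in shoots (median SE 0.19), and the root fold was the larger in 81 of 100. At least 4-fold falls were found for 45 of them in roots and 11 in shoots. In the genes that rose in both, the medians were 1.41 in roots and 1.53 in shoots in the authors' deposited tables, and 7 and 20 of the 67 reached 4-fold. Over all genes listed, the median absolute log2 fold change in the authors' deposited tables was 1.69 in roots and 1.55 in shoots, beside 1.66 and 1.41 for the members. Standard errors were larger in the root table (median 0.40 against 0.32 in the authors' deposited tables), and a larger error lets only larger folds be listed, so the sizes of the root and shoot folds were not compared by a test.

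For each class, the genes with the largest smaller fold (the smaller in size of a gene's root and shoot log2 folds) were taken from members with base means of at least 20 and levels of at least 1 normalised count in both tables, so that genes with lower counts and larger folds are not among them. Of the genes lower in both tissues, LOC130734339 came first by this rule. Its root level was 173 normalised counts at sufficient P and 9.68 at low P, and its shoot level was 5257 at the favorable and 733 at the high temperature. In the authors' deposited tables the log2 folds were -4.16 (SE 0.54) in roots and -2.84 (SE 0.15) in shoots, with DESeq2 adjusted p = 2.81e-12 and 1.84e-77. LOC130748820 was an abundant shoot transcript, at 51518 normalised counts at the favorable and 9181 at the high temperature, and it fell in roots from 376 to 27.2. The authors' deposited tables gave it -3.79 (SE 0.40) in roots and -2.49 (SE 0.15) in shoots on the log2 scale. A similar pair of falls was listed for LOC130746371, which stood at 53146 and 12815 normalised counts in shoots but at only 41.4 and 3.10 in roots. Both of its tissues fell at least 4-fold, by 3.74 (SE 0.93) in roots and by 2.05 (SE 0.14) in shoots as log2 folds in the authors' deposited tables.

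The other genes at the head of this class had lower shoot levels than those above. LOC130745801 fell from 155 to 16.2 normalised counts in roots and from 285 to 64.7 in shoots, and LOC130715092 from 264 to 62.3 in roots and from 161 to 40.2 in shoots. For LOC130715092 the log2 folds in the authors' deposited tables were nearly equal, -2.08 (SE 0.37) in roots and -2.01 (SE 0.36) in shoots. LOC130739418 had a root level of 37.7 normalised counts at sufficient P and 4.42 at low P. Its root fold was imprecise in the authors' deposited table, at -3.09 (SE 1.08) with a DESeq2 adjusted p of 0.0386, while its shoot fall from 604 to 91.6 was -2.72 (SE 0.28). The 3 genes of the class with the highest smaller base mean of the 2 tissues were LOC130748844, LOC130717606 and LOC130733242. LOC130748844 fell from 28734 to 11496 normalised counts in roots and from 8834 to 2711 in shoots, -1.32 (SE 0.36) and -1.70 (SE 0.21) as log2 folds in the authors' deposited tables. In roots LOC130733242 fell from 4289 to 851 normalised counts and LOC130717606 from 4182 to 1455, with shoot falls to 1460.1 from 3153 and to 2246 from 4874.

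**Figure D2:**
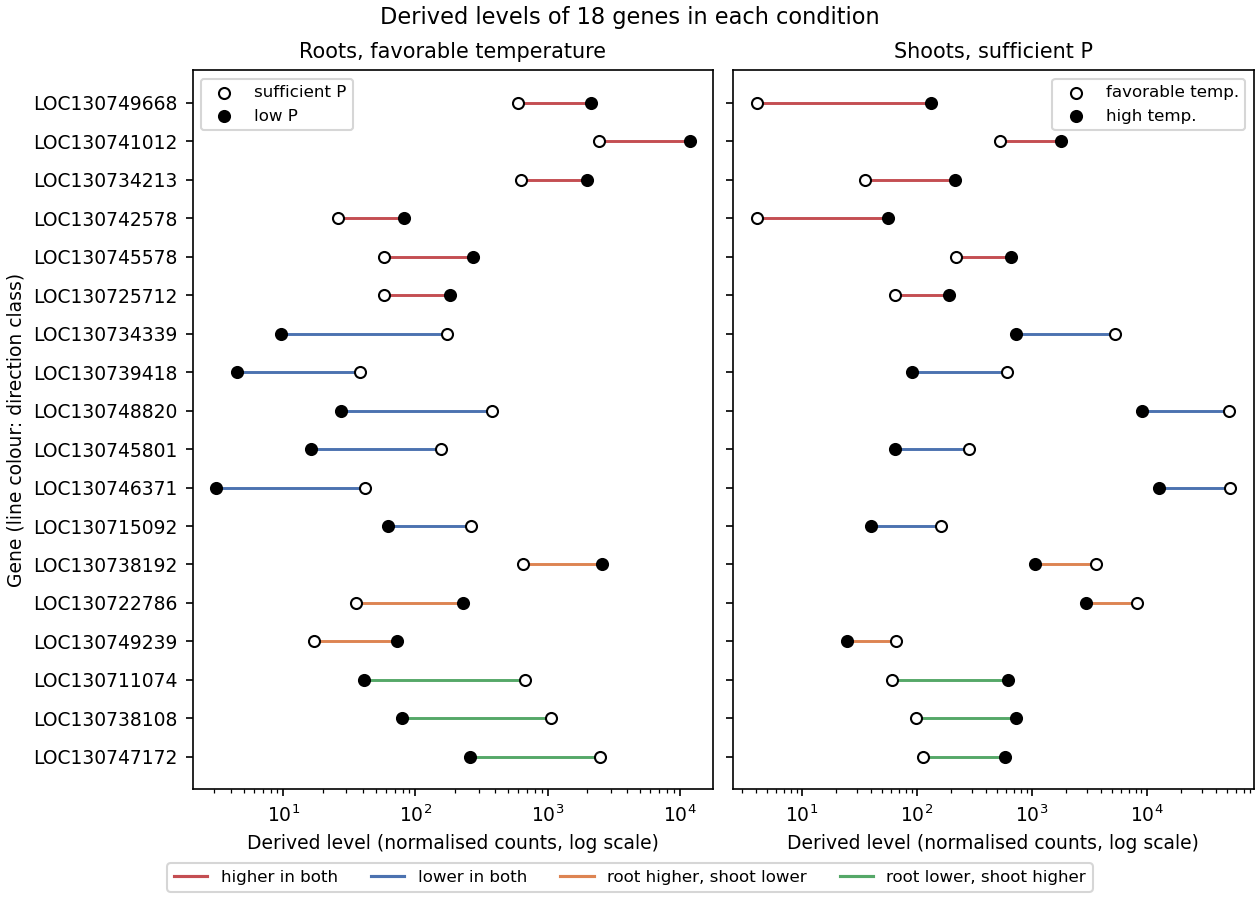
Derived levels (normalised counts, log axis) of the 18 genes with the largest smaller fold in their direction class among members with base means of at least 20 and levels of at least 1 normalised count in both tables, in roots at sufficient P (open) and low P (filled) on the left and in shoots at favorable (open) and high temperature (filled) on the right, each tissue on an axis of its own. LOC130746371 stands out by its distance between tissues, 41.4 normalised counts in roots and 53146 in shoots at the shared baseline condition, and LOC130711074 by the crossing of its directions.

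The class lower in both tissues also held every member that was very abundant in shoots. A shoot base mean of at least 10000 normalised counts, a limit chosen after the values were seen, was reached by 20 of the 208 genes, and all 20 fell in both tissues. Together they carried 77.8% of the members' summed shoot base means and 0.685% of the summed root base means. The choice by shoot base mean itself makes the first share large. For comparison, the 20 members with the highest root base means carried 76.1% of the summed root base means. Shoot levels of the 20 genes abundant in shoots ranged from 15428 to 93155 normalised counts at the favorable temperature (median 45223). At the high temperature they ranged from 6404 to 46482 (median 15058). In roots the same genes had a median of 150.2 normalised counts at sufficient P (range 26.1 to 1983) and of 29.6 at low P (range 1.54 to 251). Root log2 folds in the authors' deposited table ran from -4.09 to -1.32 (median -2.51, SE between 0.37 and 1.29), and shoot log2 fold changes from -2.49 to -1.00 (median -1.33, SE between 0.13 and 0.17). The root fold was the larger for 19 of the 20, the exception being LOC130730002 with -1.97 (SE 0.59) in roots and -2.09 (SE 0.14) in shoots in the authors' deposited tables.

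The genes of this group given next were named after their values were seen. The most abundant in shoots was LOC130710951, at 93155 normalised counts at the favorable and 46482 at the high temperature, with -1.00 (SE 0.14) as its shoot log2 fold in the authors' deposited table, close to the listing limit. In roots it fell much further, from 346 to 39.5 normalised counts, -3.13 (SE 0.40) as a log2 fold in the authors' deposited table. LOC130749266 went from 74453 to 20719 normalised counts in shoots and from 128 to 20.2 in roots. LOC130738472 went from 55673 to 14149 in shoots and from 319 to 50.2 in roots. LOC130728987 was the scarcest of the 20 in roots, at 26.1 normalised counts at sufficient P and 1.54 at low P, and its root fold of -4.09 (SE 1.29) in the authors' deposited table was the least precise. LOC130740207 had the highest root level of them, 1983 at sufficient P against 251 at low P. The ratio of shoot to root base mean of the 20 genes had a median of 8.12 on the log2 scale, against 0.23 for the other 80 genes of the class. Root and shoot tables were taken as normalised separately, so such ratios may set levels across 2 scales. The choice by shoot base mean itself also raises the ratio of the 20. The values are a description. The share of shoot RNA in the root libraries was not tested.

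**Figure D3:**
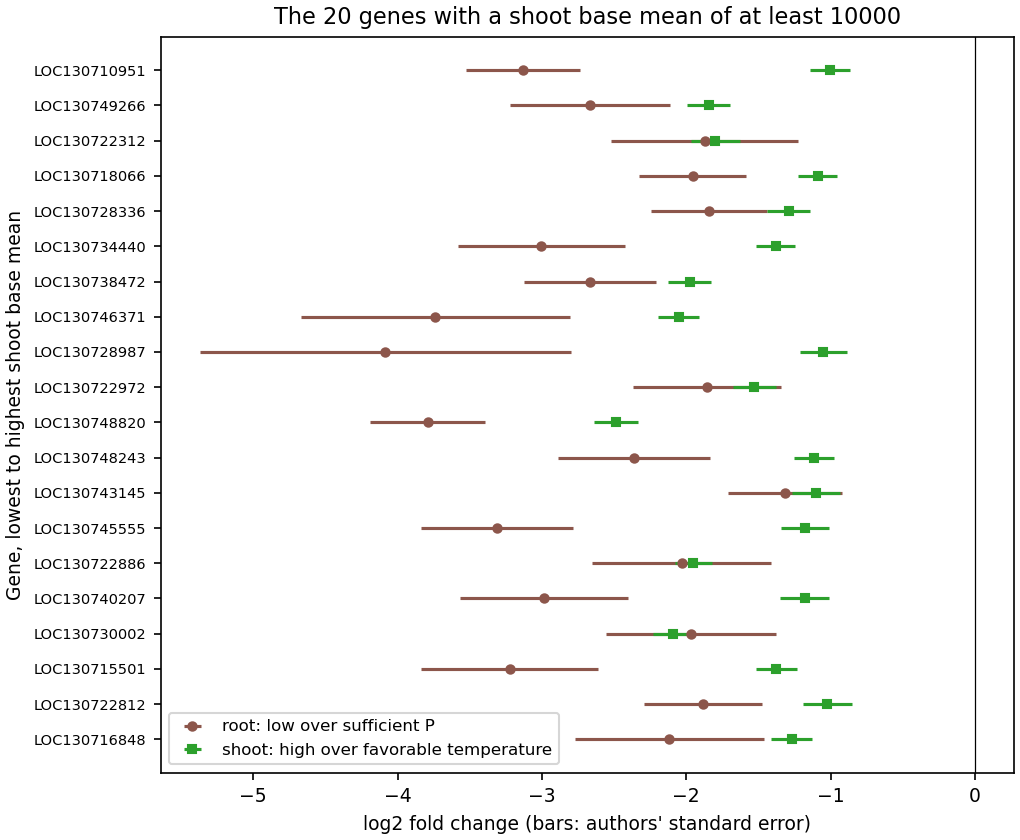
Log2 fold changes of the 20 members with a shoot base mean of at least 10000 normalised counts, in roots (circles, low over sufficient P) and shoots (squares, high over favorable temperature), ordered by shoot base mean, with bars of 1 standard error from the authors' deposited tables. Shoot folds sit between -2.49 and -1.00 with short bars, and root folds spread from -4.09 to -1.32 with longer ones.

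Of the 1667 genes that the shoot comparison listed, 64 had a base mean of at least 10000 normalised counts, of which 48 fell and 16 rose at the high temperature. Of these, 27 were also listed in roots at the favorable temperature, where 10.1% of the genes tested were called, the 20 members and 7 genes listed elsewhere as well, and 26 of the 27 fell at low P. Roots at high temperature listed 6 of the 64, where the comparison called 4.05% of the genes tested, and shoots at low P listed 12, where 4.16% were called. Since the 64 were already listed in shoots, the closer base is the 1667 genes. Of these, the 208 members and 144 other genes were listed in roots at favorable temperature, and 294 in shoots at low P. That count was not made for roots at high temperature. The absence of members from the comparisons of roots at high temperature and of shoots at low P is fixed by the rule. It does not show that their folds there were smaller, since unlisted folds are not given.

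More widely in the class lower in both tissues, 36 genes had a shoot base mean at least 8 times the root base mean. Their median root log2 fold change in the authors' deposited table was -2.52 (median SE 0.55), against -1.62 (median SE 0.37) for the other 64. The shoot medians of the same groups were -1.28 and -1.32 in the authors' deposited table. The median root base mean was 75.3 normalised counts in the 36 and 688 in the 64. Genes with lower counts and larger errors could be listed only with larger folds, which may add to the difference in root folds. This was not tested, and nothing is read from the difference. At the other end, 7 genes of the class had a root base mean at least 8 times the shoot base mean. LOC130747296, named like the next gene after its values were seen, was one, falling from 37989 to 6620.2 normalised counts in roots and from 1413 to 702 in shoots. The authors' deposited tables gave it log2 folds of -2.52 (SE 0.44) and -1.01 (SE 0.19). LOC130744171 showed the larger fall in shoots, -2.21 (SE 0.26) against -1.43 (SE 0.26) in roots in the authors' deposited tables, with root levels of 17519.5 and 6514 normalised counts.

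**Figure D4:**
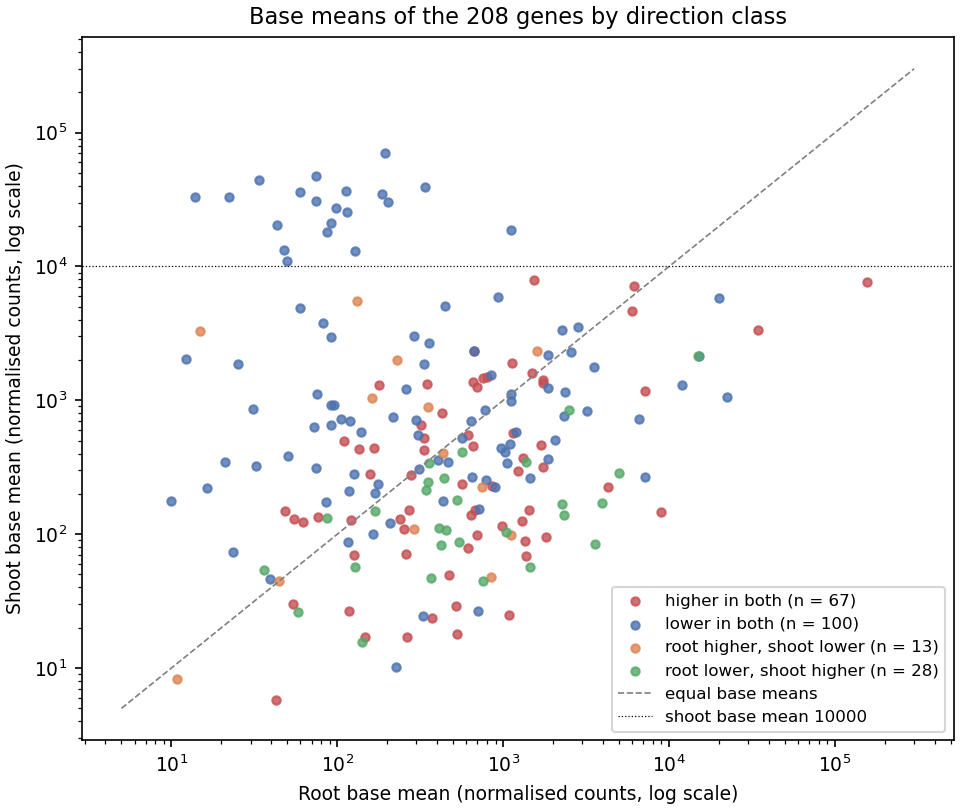
Base mean in the root comparison (horizontal axis) against base mean in the shoot comparison (vertical axis) for the 208 genes, in normalised counts on log axes, coloured by direction class, with the line of equal base means (dashed) and the shoot base mean of 10000 (dotted). All 20 points above the dotted line belong to the class lower in both tissues, and 26 of the 28 genes that fell in roots and rose in shoots lie below the dashed line.

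Of the 67 genes that rose in both tissues, LOC130749668 had the largest smaller fold among those with base means of at least 20 and levels of at least 1. Its root level rose from 596 to 2137 normalised counts and its shoot level from 4.05 to 134. The log2 folds in the authors' deposited tables were 1.84 (SE 0.46) in roots and 5.05 (SE 0.73) in shoots, with DESeq2 adjusted p = 0.00129 and 2.81e-10. LOC130741012 was abundant in both, at 2449 and 11861 normalised counts in roots and at 526 and 1804 in shoots. It had the more even pair of folds, 2.28 (SE 0.28) in roots and 1.78 (SE 0.18) in shoots in the authors' deposited tables. LOC130734213 rose from 625 to 1979 normalised counts in roots and from 35.1 to 215 in shoots, and LOC130745578 from 57.3 to 273 in roots and from 221 to 660.0 in shoots. LOC130725712 was at similar levels in both tissues, 57.7 and 183 normalised counts in roots beside 65.03 and 192 in shoots. Low counts lay behind LOC130742578, at 25.97 and 81.5 in roots and 4.08 and 56.6 in shoots, and its DESeq2 adjusted p in roots was 0.0305 in the authors' deposited table.

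Members that rose in both tissues included the most abundant gene of the whole root table, LOC130743021. It stood at 93257 normalised counts at sufficient P and 217780.4 at low P, and in shoots it rose from 4239 to 11028. Its root base mean of 155519 normalised counts was 34.5% of the members' summed root base means. Its folds in the authors' deposited tables were 1.22 (SE 0.26) in roots and 1.38 (SE 0.23) in shoots on the log2 scale. LOC130747473 rose from 3457 to 8791 normalised counts in roots and from 2249 to 11929 in shoots, 1.35 (SE 0.25) and 2.41 (SE 0.18) in the authors' deposited tables. LOC130729363 went from 3726 to 8231 in roots and from 1931 to 7363 in shoots. LOC130723581, at 21263 and 47654 normalised counts in roots, was the member nearest to the adjusted p limit in shoots but for 1 other, with 1.16 (SE 0.45) and a DESeq2 adjusted p of 0.0494 in the authors' deposited table. No gene of this class had a shoot base mean 8 times the root one, and 17 had a root base mean at least 8 times the shoot one. These 17 had a median shoot log2 fold change of 2.31 in the authors' deposited table (median SE 0.46), against 1.46 (median SE 0.24) for the other 50, while their root medians were 1.41 and 1.43. The median shoot base mean was 89.3 normalised counts in the 17 and 430.2 in the 50. Here too, larger errors raise the fold needed for listing. Whether this accounts for the difference was not tested, and nothing is read from it.

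The 28 genes that fell in low-P roots and rose in warm shoots are described by the 3 with the largest smaller fold among those with base means of at least 20 and levels of at least 1. LOC130711074 fell in roots from 674 to 40.5 normalised counts and rose in shoots from 60.3 to 617. The log2 folds in the authors' deposited tables were -4.06 (SE 0.66) and 3.36 (SE 0.24), with DESeq2 adjusted p = 5.72e-08 and 8.04e-42. LOC130738108 went from 1055 to 79.7 normalised counts in roots and from 97.5 to 725 in shoots, -3.73 (SE 0.57) and 2.89 (SE 0.30) in the authors' deposited tables. In LOC130747172 the root fall was from 2475 to 259 and the shoot rise from 113 to 585, -3.26 (SE 0.38) and 2.37 (SE 0.33) in the authors' deposited tables. All of these stood higher in roots than in shoots at the shared baseline of sufficient P and favorable temperature. Their levels in roots at low P and favorable temperature were below those in shoots at sufficient P and high temperature. These are 2 different conditions, and the levels are set across tables taken as normalised separately. Over the class, 26 of 28 genes had the larger base mean in roots, beside 111 of all 208 members. Among genes listed in these 2 comparisons and also in another, 32 of the 40 with the same directions did. The median log2 folds of all 28 genes in the authors' deposited tables were -1.73 in roots and 1.67 in shoots. Root base means of the 28 lay between 35.9 and 15019 normalised counts. LOC130749461, named after its values were seen, was the most abundant of them in roots, falling from 20383 to 9654 normalised counts in roots and rising from 1142 to 3135 in shoots.

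In the smallest class, the 13 genes with a rise in low-P roots and a fall in warm shoots, LOC130738192 came first under the same limits. Its root level rose from 655 to 2559.7 normalised counts and its shoot level fell from 3594 to 1065, 1.97 (SE 0.32) and -1.76 (SE 0.19) as log2 folds in the authors' deposited tables. LOC130722786 was mainly a shoot transcript, at 8152 and 2955 normalised counts there, and rose from 35.4 to 229 in roots. LOC130749239 was low in both tissues, at 16.9 and 72.2 in roots and 65.4 and 24.6 in shoots, and its shoot fall had a DESeq2 adjusted p of 0.0332 in the authors' deposited table. Of the others, LOC130710271 rose from 47.2 to 276 normalised counts in roots and fell from 1452 to 616 in shoots, and LOC130749306 rose from 115 to 342 and fell from 2913 to 1115; these were named after their values were seen. Over the 13 genes the root folds ran from 1.03 to 4.98 and the shoot folds from -3.91 to -1.10 as log2 folds in the authors' deposited tables. The largest root rise was that of LOC130710277, from a level fitted under 1 to 28.9 normalised counts, and the largest shoot fall that of LOC130722939, from 15.5 to 1.03.

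Few members changed strongly in both tissues. A log2 fold change of 2 or more in size was listed for 67 of the 208 genes in roots (32.2%) and for 41 in shoots (19.7%), and for 14 in both. Over all listed genes the shares were 36.0% in roots and 31.0% in shoots. Of the 144 genes listed in the same 2 comparisons and also in another, 35 reached this size in both tissues. Listing by fold chose both sets, so nothing is read from the difference. Of the 14 genes, 7 were lower in both tissues, 5 fell in roots and rose in shoots, 1 rose in both and 1 had a root rise with a shoot fall. The gene that rose at least 4-fold in both was LOC130723303, from 52.3 to 477 normalised counts in roots and from 3.48 to 30.4 in shoots, 3.19 (SE 0.36) and 3.12 (SE 1.15) in the authors' deposited tables. The one with a root rise and a shoot fall was LOC130722939, with no level over 20.2 normalised counts in any condition. Both are named because of these counts, after their values were seen.

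By adjusted p, the share of members near the limit of listing was no larger than that of all listed genes. An adjusted p over 0.01 was given to 53 of the 208 genes in roots (25.5%, against 26.7% of all listed) and to 30 in shoots (14.4%, against 17.7%), by DESeq2 in the authors' deposited tables. Nearest to the fold limit were LOC130716565 and LOC130717534 in roots, with -1.00 (SE 0.31) and 1.00 (SE 0.27), and LOC130723057 and LOC130733942 in shoots, with -1.00 (SE 0.15) and 1.00 (SE 0.15) in the authors' deposited tables. Nearest to the adjusted p limit were LOC130742348 and LOC130738430 in roots, at 0.0496 and 0.048, and LOC130741251 and LOC130723581 in shoots, at 0.0495 and 0.0494, by DESeq2 in the authors' deposited tables. Just outside the set, LOC130737413 was left out because roots at high temperature listed it with 1.02 (SE 0.30), and LOC130745680 because shoots at low P listed it with 1.01 (SE 0.22) as log2 folds in the authors' deposited tables. By adjusted p, LOC130746652 was nearest in roots at high temperature (0.0451) and LOC130746058 in shoots at low P (0.0474), by DESeq2 in the authors' deposited tables. The other tables had stricter raw p limits, 0.00257 against 0.00609 in roots and 0.00411 against 0.00954 in shoots, as the largest p in each of the authors' deposited tables. With those stricter limits applied to the tables that list them, 173 of the 208 genes would still have been listed in both. The root limit was met by 186 of the 208 members, and by 88.3% of all genes listed there. The shoot limit was met by 193 members, and by 91.3% of all genes listed there.

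Another 144 genes were listed in the same 2 comparisons and also at high temperature in roots (73 genes), at low P in shoots (48) or in both (23). Of them, 93 (64.6%) went the same way in roots at favorable temperature and shoots at sufficient P, beside 167 of the 208 members (80.3%). The share by set was 69.9% for genes also listed in roots at high temperature, 64.6% for those also listed in shoots at low P and 47.8% for those in all 4 tables. The difference was not tested, since the folds that chose the genes also give these directions. The order of these shares rests on the assumed reference groups: with the tables of 1 tissue turned round, the share with matching directions is 19.7% among members (41 genes) and 35.4% among the others (51 genes). Genes that fell in roots and rose in shoots were 13.5% of the members and 27.8% of the 144, and genes lower in both were 48.1% and 31.2%. Folds of the members were smaller, with 32.2% at 4-fold or more in roots against 48.6% of the 144, and 19.7% against 45.8% in shoots. The rule itself rests on listing by fold, so no test was made. The median ratio of shoot to root base mean in genes lower in both was 1.21 on the log2 scale in the members and -0.05 in the 144, and at least 8-fold more in shoots was seen for 36 of 100 and 10 of 45.

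**Figure D5:**
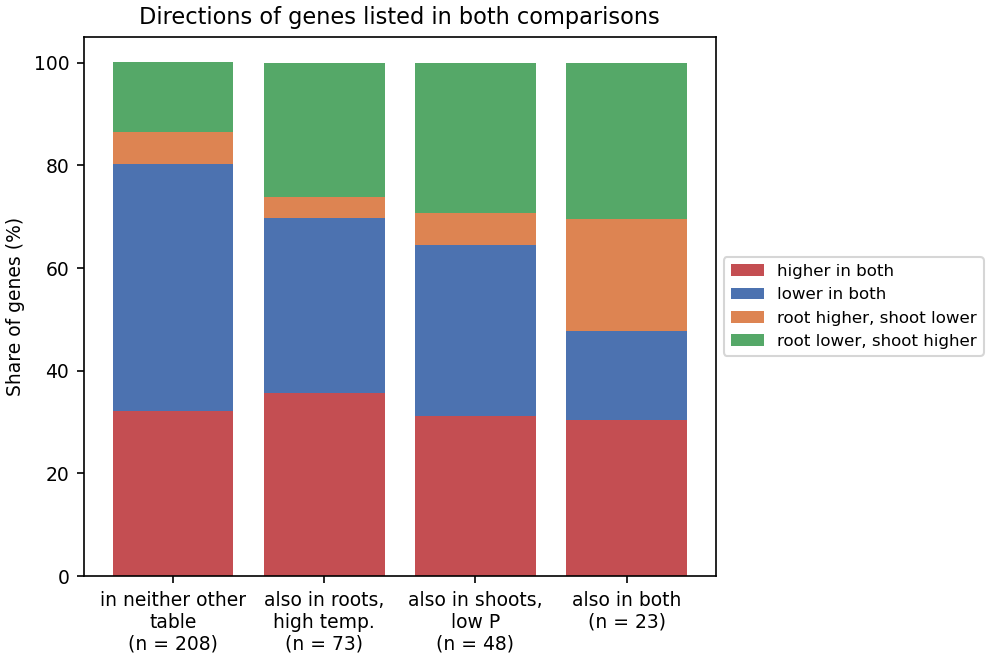
Share of genes (vertical axis, %) in each direction class among genes listed in roots at favorable temperature and in shoots at sufficient P, split by whether the other 2 tables list them, with the number of genes under each bar. With the directions as read here, the members, at the left, have the largest share of genes lower in both tissues, 48.1%, and genes in all 4 tables the smallest, 17.4%.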

How the data were processed

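The submitters' processing notes name the trimmer Trimmomatic (0.39.2), FastQC (0.14.0), the quantifier RSEM (1.3.3) and the test DESeq2 (1.44.0) without settings. Not given in the sources used here are the genome build and the annotation. Per the labels' protocols, the libraries were strand-specific, made from poly(A) RNA and read as pairs of 150 bp. Each of the 4 deposited tables holds the authors' comparison of 2 groups of 2 libraries. Per the file headers, the deposited column is a base mean, taken here as DESeq2's mean of counts divided by size factors. The log2 fold change and its standard error are on the log2 scale, per the file headers. The Wald column, deposited as a score, was the ratio of fold to standard error in every row. The p-value and the adjusted p-value are those of DESeq2, per the file headers.

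The members were found by gene identifier. Members, classes and lists were chosen with earlier results of these data known. Levels per condition were derived from base mean and fold, assuming groups of equal size. The tables were taken as normalised separately. No gene had equal base means in both tables of a tissue, but these tables share no library, so that alone does not settle it. No such check was made between roots and shoots. The genes tested were 20175, 20129, 20144 and 20438 for roots at favorable and at high temperature and shoots at sufficient and at low P. Each is the ratio of adjusted to raw p of the comparison's top gene. The arithmetic of this ratio and of the derived levels was checked on simulated data without count noise or fitted folds. That check does not show how well the derived levels match the group means. Genes were named by a rule: a base mean of at least 20 and levels of at least 1 in both tables, which 194 of 208 met, then the largest smaller fold (6 in each class with the same direction, 3 in each with opposite directions). The 3 with the highest smaller base mean in each class with the same direction and the 2 nearest to each limit were added. All 208 members matched RefSeq's table of LjGifu_v1.2, used only for names and gene order. Lists by gene description, promoter motifs and protein comparisons were planned but not run, because the reference used here gives neither descriptions nor sequences. Python 3.11.15 with pandas 2.3.3 was used.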

Additional observations from a re-analysis of the deposited data

How the results depend on the processing

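No paired analysis was possible because only results per comparison were at hand. Leaving out replicates, other count tools, other normalisations and low-count filters need values per library and were not run. Promoter and protein alternatives were not run. Of 71 recomputed values, 38 stayed within 1.5 times (counts and base means) or within the class's median standard error (folds), and 33 moved. Of the 38, 15 came from counting identical rows once, which changed nothing because no rows were identical. A reversal of direction could not occur, because fold medians were taken within classes set by the sign of the fold. Settings that keep fewer genes lower the counts by construction. A log2 fold change of 2 or more in size in both tables left 14 of 208 genes, 7 lower in both, 1 higher in both, 5 lower in roots and higher in shoots and 1 the reverse. The median root and shoot log2 folds were then -3.74 and -2.49, 3.19 and 3.12, -3.26 and 2.74, and 3.84 and -3.91 in that order, and the median root base mean 182 instead of 407. An adjusted p under 0.001 in both left 91 genes, in the same order 57, 20, 9 and 5. It moved the medians of the opposed classes to -2.52 and 2.24 and, for roots, 1.97, and the median base means to 641 in roots and 805 in shoots. A base mean of at least 100 in both left 135 genes, of which 64 were lower in both, 17 lower in roots and higher in shoots and 8 the reverse, with a median root base mean of 669. Keeping the genes of the other tables, chosen after seeing the data, gave 115 higher in both, 68 lower in roots and higher in shoots and 24 the reverse. Leaving out only genes that the other tables list with a 4-fold change or more gave 311 members, and the stricter raw p limits, also chosen after seeing the data, gave 173. Neighbouring pairs rose from 2 to 5 with at most 2 genes between.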

Other observations

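In the gene order of LjGifu_v1.2, 2 pairs of members were immediate neighbours among protein-coding genes, and in neither pair did both genes go the same way in both tissues. LOC130749368 rose in both tissues, by 1.39 (SE 0.29) in roots and 1.03 (SE 0.35) in shoots as log2 folds in the authors' deposited tables, while its neighbour LOC130744171 fell in both. LOC130710277 rose in roots from a level fitted under 1 to 28.9 normalised counts and fell in shoots from 4506 to 2099, while its neighbour LOC130715065 rose in both, by 1.83 (SE 0.47) and 1.49 (SE 0.31) as log2 folds in the authors' deposited tables. At least 1 immediate neighbour was listed in the root table for 33 of the 208 members (15.9%) and for 18.9% of all 2045 listed genes, and in the shoot table for 27 members (13%) and 15.5% of all 1667. Of the 33 members, 21 (63.6%) went the same way in roots as a listed neighbour, against 72.5% of all listed genes with such a neighbour. In shoots 14 of the 27 did (51.9%), against 77.1%. These differences were not tested.

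A level fitted under 1 normalised count stood behind 5 members, named because of that count, so their folds are fitted values and not measured ratios. LOC130749119 and LOC130723499 fell in roots from 32.8 and 61.6 normalised counts to such levels. LOC130738430 and LOC130746905 rose in shoots from such levels to 52.5 and 11.4 normalised counts. The fifth was LOC130710277 in roots.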
